A study of Arabidopsis thaliana with 12 samples.

Results

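The 4 genes described here encode enzymes of cyanate breakdown, amino acid synthesis or sulfate assimilation in Arabidopsis thaliana: CYN (AT3G23490), AT-HF (AT4G26900), KARI (AT3G58610) and APS4 (AT5G43780). Each was measured by 1 probe that the platform annotation lists with 1 gene. They are 4 of 689 loci named in this way among 3438 array features, and none of the 4 was also listed on a probe with several genes. They were chosen by function with the difference between the groups on these same 12 arrays already known, so that difference is given for them as a description, with no test. CYN and KARI lie on chromosome 3, AT-HF on chromosome 4 and APS4 on chromosome 5.

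Total RNA came from wild-type plants of the ecotype Columbia 0, and the labels name no organ, age or growth stage. In the ascorbate group, staurosporine at 2 µM was given during the first 4 h and ascorbate at 25 mM during the second 4 h. In the staurosporine group, plants stood in water for 4 h and then received staurosporine for 4 h, at a dose the labels give as 25 mM. Both groups carry a pH of 5.5 and had 6 arrays each. All plants had therefore met staurosporine, an inhibitor of many protein kinases, but at a different time and, if the labels are right, at a different dose. No group without staurosporine was part of the comparison, and these differences cannot be told apart from the effect of ascorbate, a soluble antioxidant abundant in plant cells.

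Cyanase, the product of CYN, uses bicarbonate to break cyanate down to ammonia and carbon dioxide, which makes it a detoxifying enzyme and a minor source of nitrogen. AT-HF is the histidine enzyme also listed as HISN4, a plastid protein that joins a glutamine amidotransferase to a cyclase and closes the imidazole ring. KARI is ketol-acid reductoisomerase, the NADPH-dependent plastid enzyme of valine, leucine and isoleucine synthesis. It works just before dihydroxy-acid dehydratase. APS4 is an isoform of ATP sulfurylase, which activates sulfate with ATP as the first step of its reduction to sulfide and cysteine. Plant sulfate reduction is known for its control by redox state, mainly at the step after ATP sulfurylase.

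The deposited values are relative intensities on a linear scale up to 100. Array medians lay between 0.35 and 0.486 with ascorbate and between 0.169 and 0.393 with staurosporine, and 10.3% to 17.3% of features were listed at 0 on an array. None of the 4 genes was listed at 0 on any array. Arrays with consecutive numbers (1 and 2, 3 and 4, 5 and 6) resembled each other within a group, with Spearman correlations of 0.889 to 0.983 across features. Values are therefore also given as averages of these 3 pairs. Of the fixed green tissue markers, 5 of 10 had a single-gene probe, and no root marker (0 of 7) and no pollen or flower marker (0 of 6) had one. The summed intensity of the 5 green tissue markers was 36.3 to 76.7 with ascorbate and 59.7 to 93.3 with staurosporine. Nearly all of it came from PSBW, a photosystem II subunit. The PSBW median was 68.8 with ascorbate and 66.9 with staurosporine, and its lowest ascorbate values, 34.3 and 37.2, were on arrays 5 and 6. Means of the pairs for PSAN, PRK and PSBY were 0.557, 0.565 and 0.727 with ascorbate, against 0.365, 0.512 and 0.699 with staurosporine. The markers thus did not differ in 1 direction, and their ranges overlapped. SBPASE, a Calvin cycle enzyme, was at 0 on all 12 arrays. The part of tissue makeup in any difference was not tested, and in RNA of whole samples fewer cells of a type cannot be told apart from less RNA per cell.

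CYN and AT-HF were lower with ascorbate on every array, KARI was higher on every array, and the APS4 ranges overlapped. CYN intensity was 0.721 at the lowest, 0.947 at the median and 1.18 at the highest over the 6 ascorbate arrays, against 3.37, 3.9 and 5.3 over the 6 staurosporine arrays. The highest ascorbate array thus stayed well below the lowest staurosporine array. By pair the averages were 0.994, 0.733 and 1.06 with ascorbate, against 3.75, 5.21 and 3.65 with staurosporine. Arrays 3 and 4 were the lowest pair in the ascorbate group and the highest in the staurosporine group, so the ratio of ascorbate to staurosporine was smallest there, at 0.141. It was 0.265 for arrays 1 and 2 and 0.291 for arrays 5 and 6. After quantile normalization, which gives all arrays 1 distribution of values, the log2 change (ascorbate minus staurosporine) was −2.08 ± 0.13 (SE from limma, n = 6 arrays per group). By pair it was −2.03, −2.55 and −1.67 (SD 0.44, n = 3 pairs). This SE and those below treat the 6 arrays of a group as independent, although consecutive arrays resembled each other. They may therefore be too small. The CYN probe was brighter than 76.8% to 87.6% of features on the ascorbate arrays and than 96.1% to 97.2% on the staurosporine arrays. Such ranks describe probes on an array and are no measure of transcript amounts between genes.

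AT-HF, the histidine enzyme, showed a difference of like size. It read 0.291 at the lowest, 0.368 at the median and 0.603 at the highest with ascorbate, against 1.29, 1.7 and 2.16 with staurosporine. The groups did not overlap. Pair averages were 0.323, 0.492 and 0.4 with ascorbate, against 2.1, 1.36 and 1.7 with staurosporine. Arrays 3 and 4 were here the highest pair with ascorbate and the lowest with staurosporine, the reverse of CYN. The ratio of ascorbate to staurosporine was accordingly nearest to 1 in that pair, at 0.361, beside 0.153 in arrays 1 and 2 and 0.235 in arrays 5 and 6. The normalized log2 change was −2.55 ± 0.26 (SE, n = 6 arrays per group). Its probe was brighter than 31.3% to 70.4% of features on the ascorbate arrays, a wide range, and than 91.2% to 94.1% on the staurosporine arrays. Consecutive ascorbate arrays differed by 0.29, 0.66 and 0.60 in the log2 intensity of AT-HF, and staurosporine arrays by 0.08, 0.16 and 0.04. Over the 2540 features without zeros, the median gap between consecutive arrays was 0.16 to 0.29 with ascorbate and 0.14 to 0.21 with staurosporine.

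KARI, the branched-chain amino acid enzyme, was the only one of the 4 that was higher with ascorbate. Its intensity was 0.998 at the lowest, 1.1 at the median and 1.37 at the highest with ascorbate, against 0.398, 0.435 and 0.494 with staurosporine. The lowest ascorbate array lay well above the highest staurosporine array, and the groups did not overlap. Pair averages were 1.2, 1.16 and 1.02 with ascorbate, against 0.414, 0.422 and 0.472 with staurosporine, giving ratios of 2.9, 2.74 and 2.17. Its mean was 1.13 ± 0.0917 with ascorbate and 0.436 ± 0.0316 with staurosporine (SD, n = 3 pairs each). The normalized log2 change was 1.08 ± 0.20 (SE, n = 6 arrays per group).

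The size of the KARI difference depended on how the arrays were put on 1 scale. On the deposited log2 scale the median change of all 3438 features was 0.72, and by pair it was 0.18, 0.91 and 1.02 for arrays 1 and 2, 3 and 4, and 5 and 6. The KARI differences in these pairs were 1.52, 1.45 and 1.12 on that scale. KARI thus exceeded the median feature clearly in arrays 1 and 2 and hardly in arrays 5 and 6. After each array was centred on its median, its changes were 1.38, 0.41 and 0.03, and the groups overlapped. Relative to the median change of all features on the deposited log2 scale, the change was 0.64 for KARI, −2.90 for CYN and −2.84 for AT-HF. With that shift taken off, the differences of CYN and AT-HF were thus larger and that of KARI smaller. A scale difference between arrays and a common rise of many transcripts cannot be told apart in these values.

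APS4 had the least clear difference. Its intensity was 0.257 at the lowest, 0.368 at the median and 0.538 at the highest with ascorbate, against 0.248, 0.43 and 0.561 with staurosporine, so the ranges nearly coincided. Pair averages were 0.472, 0.377 and 0.298 with ascorbate, against 0.503, 0.269 and 0.443 with staurosporine. The ratio of ascorbate to staurosporine was below 1 in arrays 1 and 2 (0.939) and in arrays 5 and 6 (0.672), and above 1 in arrays 3 and 4 (1.41). The ascorbate arrays 3 and 4 differed by 0.95 in log2 intensity, the widest gap between consecutive arrays for any of the 4 genes. On the normalized scale the log2 change was −0.87 ± 0.30 (SE, n = 6 arrays per group), with −0.25, −0.46 and −1.89 in the 3 pairs. Without arrays 5 and 6 of both groups it was −0.37. On the deposited scale it was −0.09. The negative normalized value therefore goes with a lower rank among features, since the APS4 probe was brighter than a median of 43.9% of features with ascorbate and 63.8% with staurosporine. The mean deposited intensity was 0.382 ± 0.0871 with ascorbate and 0.405 ± 0.122 with staurosporine (SD, n = 3 pairs each).

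**Figure D1:**
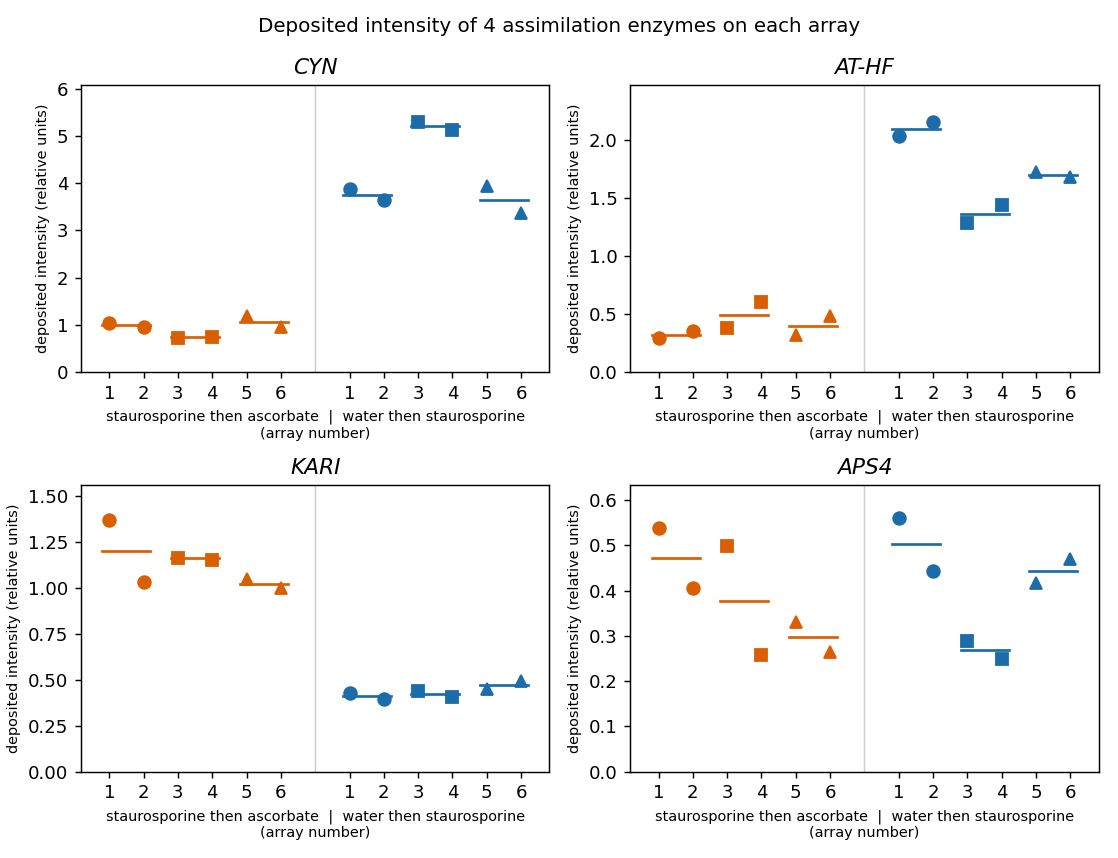
Deposited intensity (relative units, linear axis from 0) of CYN, AT-HF, KARI and APS4 on each array, with the 6 ascorbate arrays left and the 6 staurosporine arrays right of the grey line. Symbols mark the pairs of consecutive arrays and short lines their averages: CYN and AT-HF are lower on every ascorbate array, KARI is higher, and APS4 overlaps.

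Counted over the 4 genes, 3 had groups that did not overlap in deposited intensity, and the same 3 did not overlap after normalization. Of all 3438 features, 17.1% did not overlap in deposited intensity and 17.0% after normalization, in either direction. Since the genes were picked with this difference known, nothing is read from that count. Among all features, 4.77% had a lower normalized change than CYN and 3.55% a lower one than AT-HF. On the deposited scale these shares were 1.02% and 1.11%. For KARI, 84.6% of features had a lower normalized change and 67.5% a lower deposited one, which places it inside the upper body of the distribution rather than in its tail. For APS4 the shares were 18.4% and 23.1%.

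**Figure D2:**
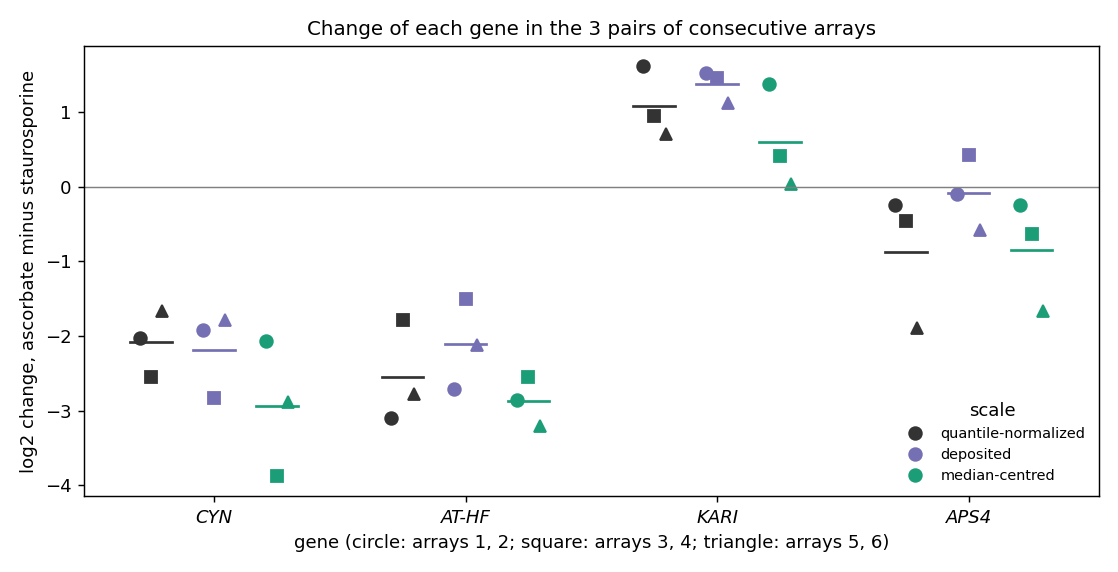
Log2 change (ascorbate minus staurosporine) of the 4 genes in each pair of consecutive arrays on 3 scales, with a line at the mean of the 3 pairs. CYN and AT-HF lie at −1.51 or below in all pairs and on all 3 scales, KARI reaches 0.03 in arrays 5 and 6 after median centring, and APS4 takes both signs on the deposited scale.

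Ratios of deposited intensity between 2 genes on the same array stay the same when the whole array is multiplied by 1 factor. Their difference between the groups shows whether the genes differed unequally. Quantile normalization is no such factor, and overlap of the ratios was not checked on that scale. The log2 ratio of CYN to KARI differed by −3.44, −4.28 and −2.90 (ascorbate minus staurosporine) in the 3 pairs, a mean of −3.54. That of AT-HF to KARI differed by −4.23, −2.96 and −3.24, a mean of −3.48. Neither ratio overlapped between the groups. The log2 ratio of KARI to APS4 was higher with ascorbate by 1.62, 1.04 and 1.70, again without overlap. On these 12 arrays KARI and APS4 thus differed unequally whatever factor each array is multiplied by. The ratios of CYN and of AT-HF to APS4 differed by −2.09 and −2.03, and did not overlap either. The ratio of CYN to AT-HF differed by 0.79, −1.32 and 0.34 in the 3 pairs, a mean of −0.06, and its groups overlapped. The genes were picked with their difference between the groups known, so nothing is read from the lack of overlap. How often ratios of other features overlap was not counted. These differences compare genes within the set and carry no p-value.

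**Figure D3:**
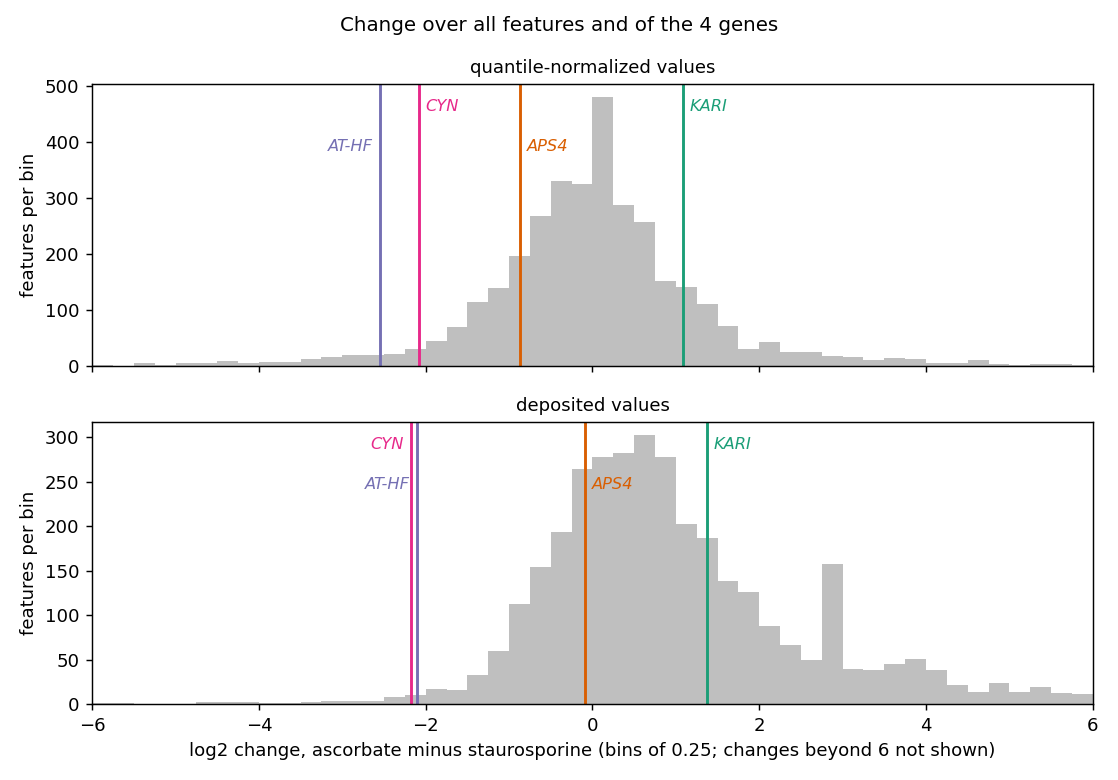
Number of features per bin of log2 change (ascorbate minus staurosporine) over all 3438 features, on quantile-normalized values above and deposited values below, with lines at the 4 genes. CYN and AT-HF lie in the lower tail in both panels, while KARI, at 1.08 and 1.37, and APS4, at −0.87 and −0.09, lie within the body.

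Within the groups, the 4 genes did not follow each other closely. Deviations from the group mean, taken on normalized log2 values over the 12 arrays, had a Pearson correlation of −0.64 between CYN and AT-HF. The other 5 correlations ran from −0.40 (CYN and APS4) to 0.42 (KARI and APS4). Each is a description over 12 arrays, which resemble each other in pairs. Among the 505 other named loci without zeros, the deviations most like those of CYN were found for AT5G59400, AT1G49850 and AT4G09620, at correlations of 0.88, 0.79 and 0.75. For AT-HF they were AT4G39230, AT1G24360 and AT3G03590, at 0.83, 0.76 and 0.76. For KARI they were AT1G72890, AT1G01500 and AT4G27250, at 0.90, 0.90 and 0.84. For APS4 they were CRR21 (AT5G55740), a pentatricopeptide repeat protein of chloroplast RNA editing, AT1G24040 and AT2G21720, at 0.93, 0.91 and 0.88. These loci are likewise given as a description, since the highest of 505 correlations over 12 arrays can be high through that selection alone. AT2G21720 read 0.503 to 0.832 with ascorbate and 1.25 to 1.69 with staurosporine, while CRR21 read 0.401 to 0.878 with ascorbate and 0.305 to 0.527 with staurosporine. The groups were apart for AT2G21720 and overlapped for CRR21, and both were taken as examples after their values were seen.

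To place the 4 genes in their pathways, 9 lists of 203 other enzymes and transporters of amino acid synthesis, nitrogen and sulfur assimilation and cyanide or bicarbonate metabolism were followed. Of these, 4 had a single-gene probe: DHAD, DAPE, CBL and ASL. No other member of the histidine list (0 of 10), of the sulfate list (0 of 38) or of the cyanide, nitrile and bicarbonate list (0 of 11) was measured in this way. None of the 4 passed in the limma fit over 12 arrays (0 of 4 at an adjusted p under 0.05), against 28.0% of all features. At an unadjusted p under 0.05 the count was 1 of 4, against 39.4% of all features. Over pair averages the limma counts were again 0 of 4 and 1 of 4, against 1.54% of features at the adjusted and 24.6% at the unadjusted threshold. The gene past the unadjusted threshold was DHAD in both fits.

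DHAD (AT3G23940) is the dihydroxy-acid dehydratase that acts on the product of KARI. It read 0.224 at the lowest, 0.409 at the median and 0.457 at the highest with ascorbate, against 0.0632, 0.129 and 0.241 with staurosporine, with 1 ascorbate array inside the staurosporine range. Pair averages were 0.33, 0.322 and 0.452 with ascorbate, against 0.216, 0.09 and 0.115 with staurosporine. Its log2 change was 0.59 ± 0.20 (SE, n = 6 arrays per group; limma adjusted p = 0.0512), and 0.49, 0.60 and 0.69 in the 3 pairs. The limma adjusted p was 0.108 over pair averages and 0.121 when array numbers entered as a block. Leaving out ascorbate array 2 or staurosporine array 4 brought it past the threshold (limma adjusted p = 0.0112 and 0.0339). On the deposited scale DHAD was called higher (log2 change 1.48, limma adjusted p = 0.00831), where the median of all features was 0.72.

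ASL (AT5G10920), the argininosuccinate lyase that releases arginine, read 0.935 at the lowest, 1.72 at the median and 2.21 at the highest with ascorbate, against 1.2, 2.33 and 2.58 with staurosporine. Arrays 3 and 4 were the lowest pair in both groups, at 1.05 with ascorbate and 1.27 with staurosporine. Its log2 change was −0.25 ± 0.23 (SE; limma adjusted p = 0.47). After median centring it was called lower (log2 change −1.11, limma adjusted p = 0.00473). DAPE (AT3G53580), the diaminopimelate epimerase of lysine synthesis, read 0.0222 to 0.337 with ascorbate and 0.00633 to 0.431 with staurosporine (limma adjusted p = 0.567). It too was lowest on arrays 3 and 4 in both groups. CBL (AT3G57050) is the cystathionine beta-lyase of methionine synthesis, a pathway that draws on the cysteine made from reduced sulfate. It read 0.00561 to 0.35 with ascorbate and 0 to 0.197 with staurosporine, with 1 array listed at 0 (limma adjusted p = 0.901). Its 2 lowest ascorbate arrays were numbers 5 and 6. Whether the 6 arrays stand for separate plants or cultures is not stated, so the SEs and p-values cover only array-to-array spread, which may be technical.

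**Figure D4:**
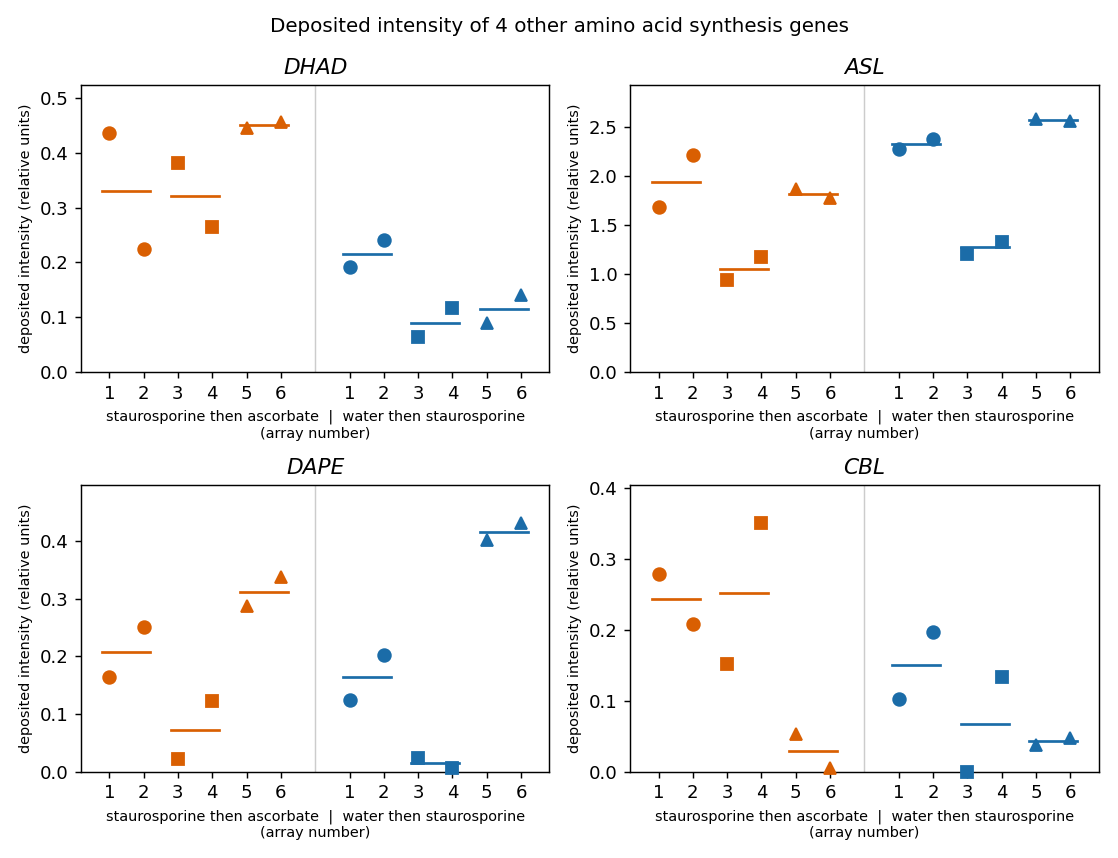
Deposited intensity (relative units, linear axis from 0) of DHAD, ASL, DAPE and CBL on each array, drawn as for the 4 genes above, with ascorbate arrays left and staurosporine arrays right. DHAD is mostly higher with ascorbate with 1 array inside the staurosporine range, while the other 3 overlap and ASL and DAPE are lowest on arrays 3 and 4 in both groups.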

How the data were processed

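The series was measured on 12 arrays in 2 groups of 6. The authors deposited intensity values on a linear scale from 0 to 100. How they were scanned, background-corrected or normalized is not given in the sources used here. The highest value was 100 on 9 of 12 arrays, and array means lay between 0.857 and 1.03. The deposited values may therefore already have been scaled or capped by array. The platform annotation and the TAIR10.1 gene table named the probes (690 of 692 single-gene probes matched), and probes of 1 locus were averaged. Each zero was replaced by the lowest positive reading on its array, and log2 values were quantile-normalized, since array medians spanned 1.53 (limit 0.2). All 3438 features entered 1 fit of ascorbate minus staurosporine (lmFit and eBayes of limma 3.58.1, R 4.3.3), with 2-sided p-values adjusted after Benjamini and Hochberg and a threshold of 0.05. No p is given for CYN, AT-HF, KARI or APS4. The fit was also run on simulated data with independent noise on each array. That run cannot show how the likeness of consecutive arrays affects the calls. Deviations of same-numbered arrays correlated across the groups at 0.106 to 0.347, each above 0.1. The labels state no pairing. The printed SEs, p-values and calls come from the fit without pairing, and the array number as a block was an alternative. The correlation between consecutive arrays was 0.54 by duplicateCorrelation. Alternatives were other normalizations, pseudocounts, a filter, blocks, pair averages, array weights, a trended prior and arrays left out. The number of arrays limits the precision.

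Genes named were the 4 genes, every measured gene of the 9 pathway lists, and for each of the 4 genes the 3 named loci with the most similar deviations. The genes, the lists and these rules were chosen with earlier results of these data known. KARI, DHAD, DAPE, CBL and ASL are common enzyme names assigned by locus. Coordinates are left out because the build behind the probes is not stated.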

Additional observations from a re-analysis of the deposited data

Results flagged for a closer look

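Of 16 groups of 6 arrays checked (8 genes in both groups, normalized log2 values), 2 held an array far from the other 5, and chance alone would mark about 1 in 20. DAPE read −6.37 on ascorbate array 3, against −3.18 to −2.40 on the others, at a deposited intensity of 0.0222. CBL read −12.55 on staurosporine array 3, against −3.98 to −1.90 on the others, where it was listed at 0 and took the smallest positive value of its array. CYN, AT-HF, KARI and APS4 had no such array.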

How the results depend on the processing

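In all 27 alternatives the log2 changes of CYN (−2.94 to −1.74), AT-HF (−2.87 to −2.11), KARI (0.60 to 1.37) and APS4 (−1.23 to −0.09) kept their sign. The pairs left out and a pseudocount of 0.05 were chosen after the values were seen. Against 964 features called, pair averages gave 53 (52 of them among the 964), pair averages with the pair as a replicate block 1, consecutive arrays as a random block 557, and leaving out arrays 5 and 6 of both groups 593. Leaving out any 1 array gave 788 to 951. The array number as a replicate block gave 849 and called 0 of the 4 pathway genes, as without it. On the deposited scale 84.0% of calls were higher with ascorbate (1093 higher, 208 lower), against 49.7% (479 higher, 485 lower). Of the 4 pathway genes, 0 were called, against 1 (DHAD) on the deposited scale, 1 (DHAD) without the dimmest 25% of features and 1 (DHAD) with the pseudocount of 0.05. Median centring called 2, DHAD higher and ASL lower. With 1 array left out the count was 0 to 1, the 1 being DHAD without ascorbate array 2 or staurosporine array 4. The uncalled changes of CBL (−3.22 to 3.08) and DAPE (−1.40 to 0.68) took both signs. CBL had no value in the filtered fit. The cause of these shifts was not tested. Pair averages leave 3 values per group, while the fit with consecutive arrays as a random block kept every array. Depth and signal over background are unknown, since the values are relative intensities.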

Other observations

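Besides the single-gene probes, 9 probes list 2 genes each that both belong to 1 of the pathway lists. Such a probe cannot be assigned to either gene, so the genes are not named, and the probes were looked at after their values were seen. Of the 9, 2 passed (limma adjusted p under 0.05 over 12 arrays), against 28.0% of all features, and 0 passed over pair averages, against 1.54%. At an unadjusted p under 0.05 over pair averages the limma count was 3 of 9, against 24.6% of all features.

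Of the histidine list, the list of the enzymes that work beside AT-HF, 2 such probes were on the arrays. Probe 301 read 1.21 at the lowest, 1.49 at the median and 1.73 at the highest with ascorbate, against 2.61, 3.49 and 4.32 with staurosporine. The groups did not overlap, as for 17.1% of all features in either direction. The log2 change of probe 301 was −1.03 ± 0.15 (SE, n = 6 arrays per group, limma adjusted p = 7.2e-04, 0.0857 over pair averages). Probe 1473, which lists the same 2 genes, was dim, at 0.0553 to 0.272 with ascorbate and 0.0341 to 0.211 with staurosporine (log2 change −1.33 ± 0.53 SE, limma adjusted p = 0.0874). On the deposited scale the probes differed in sign, with −1.19 for probe 301 and 0.23 for probe 1473. The median change of all features on that scale was 0.72, and both probes lay below it. Both normalized changes were negative.

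Of 4 probes of the aspartate-family list, which covers lysine, threonine and methionine synthesis, probe 1313 passed. It read 0.787 to 1.16 with ascorbate and 0.324 to 0.723 with staurosporine, again without overlap (log2 change 0.67 ± 0.13 SE, limma adjusted p = 0.00344, 0.129 over pair averages). Its change on the deposited scale was 1.05, where the median of all features was 0.72. Probes 590, 1679 and 3354 of that list did not pass, with deposited changes of 1.14, 1.20 and 0.06. None of the 3 probes of the aromatic list passed (adjusted p = 0.64 to 0.985, limma).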
